A study of Rattus norvegicus with 9 samples.

Results

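Solute carriers are the membrane proteins that move sugars, amino acids, transmitters, ions, metals, vitamins and metabolites across the plasma membrane and the membranes of organelles, without splitting ATP themselves. The genes described here are those whose symbol reads Slc, a family number, a letter and a member number, leaving out the astrocytic glutamate transporters Slc1a2 and Slc1a3. Of 281 symbols of this form in the deposited table, 279 remained after those genes were left out, and 210 reached at least 1 TPM (the share of transcripts after correction for gene length) in at least 3 of the 9 libraries. These 210 genes belong to 46 families and were sorted by substrate into 15 classes. They are 210 of the 10180 genes that passed the same filter. Of the 69 that did not pass, 7 were at 0 in every library and 61 stayed below 1 TPM in every library. On the third-highest of their 9 libraries, the pair just inside the limit were Slc26a4 at 1.22 TPM and Slc22a21 at 1.25 TPM, and the pair just outside were Slc6a4 at 0.928 TPM and Slc34a1 at 0.887 TPM.

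The 9 libraries came from rat brain and formed 3 groups of 3. Sham rats had the operation without occlusion of the middle cerebral artery, IR rats had the occlusion, a model of ischemic stroke, and IR+NMN rats had the occlusion and an injection of 100 mg/kg NMN (nicotinamide mononucleotide, from which cells make the coenzyme NAD) dissolved in saline. The treatment label of Sham and IR is PBS, so the vehicle named for NMN is not the one on the control labels. The sources used here give neither strain, age, sex, brain region nor the times of sampling and injection, and do not say whether each library is 1 animal. The p-values therefore rest on the spread among libraries, which may be technical.

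In brain, carriers take transmitters out of the synaptic cleft and load them into vesicles, pass glucose, lactate and amino acids across the blood-brain barrier, and hold the chloride, bicarbonate, proton and calcium gradients on which neurons depend. Most plasma membrane carriers for transmitters and amino acids draw their energy from the sodium gradient, which collapses when blood flow stops. Neurons, astrocytes, endothelium, microglia and the choroid plexus each use characteristic members. In bulk tissue such as this, fewer cells of a type and less RNA per cell cannot be told apart.

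The sequencing depth behind the TPM is unknown, and the number of solute carrier genes at 1 TPM or more was 207 to 212 per Sham library, 201 to 203 per IR library and 201 to 205 per library with NMN. IR 1 and IR+NMN 2 stood apart from their groups. On the first principal component of the 210 genes, which held 51.5% of the variance, they scored -1.28 and -1.45, toward the Sham libraries (-5.62 to -2.98) and away from the other IR and IR+NMN libraries (2.84 to 5.97). Defining markers of neurons, astrocytes, oligodendrocytes and endothelium were present in every group. Sham 3 carried the most meningeal and fibroblast markers, 2746 TPM against 473 and 502 TPM in the other Sham libraries, and red blood cell markers summed to 4084 to 9351 TPM (Sham), 732 to 903 TPM (IR) and 826 to 1012 TPM (IR+NMN).

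Of the 210 solute carrier genes, 14 averaged 100 TPM or more, 128 lay between 5 and 100 TPM, and 68 were below 5 TPM. The 5 most abundant held 42.7% of the summed TPM of the 210 genes and the 10 most abundant 51.5%. Slc17a7, the vesicular glutamate transporter VGLUT1 of cortical excitatory neurons, averaged 1271 ± 247 TPM (Sham), 1336 ± 337 TPM (IR) and 999.9 ± 178 TPM (IR+NMN) (mean ± SD, n = 3 here and below). Slc25a4, the mitochondrial ADP/ATP carrier ANT1, averaged 1016 ± 54.9 TPM (Sham), 1027 ± 51.1 TPM (IR) and 912 ± 60.2 TPM (IR+NMN). Both were among the most abundant carriers in every group, and neither passed the test in any contrast. Slc25a3, the mitochondrial phosphate carrier, averaged 569 ± 32.9 TPM (Sham), 496 ± 29.6 TPM (IR) and 489 ± 57.1 TPM (IR+NMN). Slc25a3 was summed from 25 table rows and Slc25a4 has the near copy Slc25a5, so reads may be split between copies and these levels are uncertain.

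Among neuronal membrane carriers, Slc12a5 (KCC2, which keeps neuronal chloride low) averaged 159 ± 32.5 TPM (Sham), 109 ± 25.4 TPM (IR) and 114 ± 45.8 TPM (IR+NMN). Slc8a2, the sodium-calcium exchanger NCX2, averaged 178 ± 107 TPM (Sham), 127 ± 55.8 TPM (IR) and 129 ± 90.5 TPM (IR+NMN), with single Sham libraries from 86.6 to 296 TPM, so its groups overlapped widely. Slc30a3, which loads zinc into synaptic vesicles, averaged 151 ± 66.5 TPM (Sham), 93.2 ± 14.5 TPM (IR) and 106 ± 64.9 TPM (IR+NMN), again with overlapping groups. Slc1a1 (EAAC1, neuronal glutamate uptake) averaged 83.99 ± 16.5 TPM (Sham), 60.5 ± 15.4 TPM (IR) and 62.9 ± 21.5 TPM (IR+NMN). For glucose, Slc2a3 (GLUT3, the neuronal form) averaged 75.1 ± 6.34 TPM (Sham), 60.97 ± 10.3 TPM (IR) and 58.5 ± 10.8 TPM (IR+NMN) and Slc2a1 (GLUT1, the endothelial and glial form) averaged 48.3 ± 4.40 TPM (Sham), 47.9 ± 8.94 TPM (IR) and 65.05 ± 12.2 TPM (IR+NMN). Neither glucose transporter passed the test in any contrast, and GLUT1 had its highest values, 69.01 and 74.8 TPM, in IR+NMN.

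Several other abundant carriers did not pass the test in any contrast. Slc35b1, a carrier of the endoplasmic reticulum, averaged 74.8 ± 4.52 TPM (Sham), 77.5 ± 3.82 TPM (IR) and 76.4 ± 5.75 TPM (IR+NMN), with a log2 change of 0.05 in IR against Sham. Slc48a1, which moves heme out of endosomes and lysosomes, averaged 114 ± 20.2 TPM (Sham), 105 ± 12.4 TPM (IR) and 104 ± 15.02 TPM (IR+NMN). Slc3a2, the heavy chain that carries several amino acid exchangers to the membrane, averaged 113 ± 4.17 TPM (Sham), 134 ± 30.3 TPM (IR) and 142 ± 16.6 TPM (IR+NMN). Slc27a4, a fatty acid transport protein, averaged 55.2 ± 1.82 TPM (Sham), 42.1 ± 3.43 TPM (IR) and 44.7 ± 2.53 TPM (IR+NMN), and its groups did not overlap between Sham and IR, although it missed the threshold with a log2 change of -0.39 (SE 0.10, adjusted p = 0.0602). Ascorbate carrier Slc23a2 (SVCT2) measured 91.9, 74.6 and 58.1 TPM (Sham), 53.8, 30.5 and 31.9 TPM (IR) and 44.9, 63.8 and 55.3 TPM (IR+NMN). Its IR libraries all lay below its Sham libraries, with a log2 change of -0.96 (SE 0.25, adjusted p = 0.0548), which also missed the threshold.

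In TPM as deposited, the solute carrier genes past the threshold after the occlusion were all lower, at a share near that of all genes. In IR against Sham, 14 of 210 passed an adjusted p of 0.05 in a linear model over all 9 libraries, 0 higher and 14 lower, which is 6.67% against 6.39% of all genes tested, of which 1.14% were higher and 5.26% lower. At an unadjusted p under 0.05 there were 3 higher and 72 lower, 1.43% and 34.3% of the solute carriers against 5.20% and 23.1% of all genes. The 3 IR libraries all lay below the 3 Sham libraries in 37.1% of solute carrier genes against 26.7% of all genes, and all above in 2.38% against 7.58%. The median log2 change was -0.34 for the solute carriers and -0.21 for all genes. Where the libraries were rescaled by their median ratio, the median of all genes moved to -0.0038 and that of the solute carriers to -0.15. Then 8 solute carrier genes were lower and 1 higher, beside 285 lower and 276 higher of all genes. Of the 14 calls, 5 passed after both median-ratio rescaling and quantile normalization, 3 after one of them and 6 after neither. With the share of ribosomal protein genes as a covariate, 7 of the 14 passed and the medians were -0.18 for the solute carriers and -0.099 for all genes. Counts were 1 without Sham 2, IR 2 or IR 3, 2 without Sham 1, 3 without Sham 3 or IR+NMN 3, 29 without IR 1 and 32 without IR+NMN 2. Those of all genes moved as well, from 74 without IR 2 to 1138 without IR 1. Slc22a15 alone among the 14 calls held without each library in turn. The call of Slc38a5 was lost without Sham 2, IR 2 or IR 3, and the other 12 were lost without any 1 of Sham 1, Sham 2, Sham 3, IR 2 and IR 3.

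**Figure D1:**
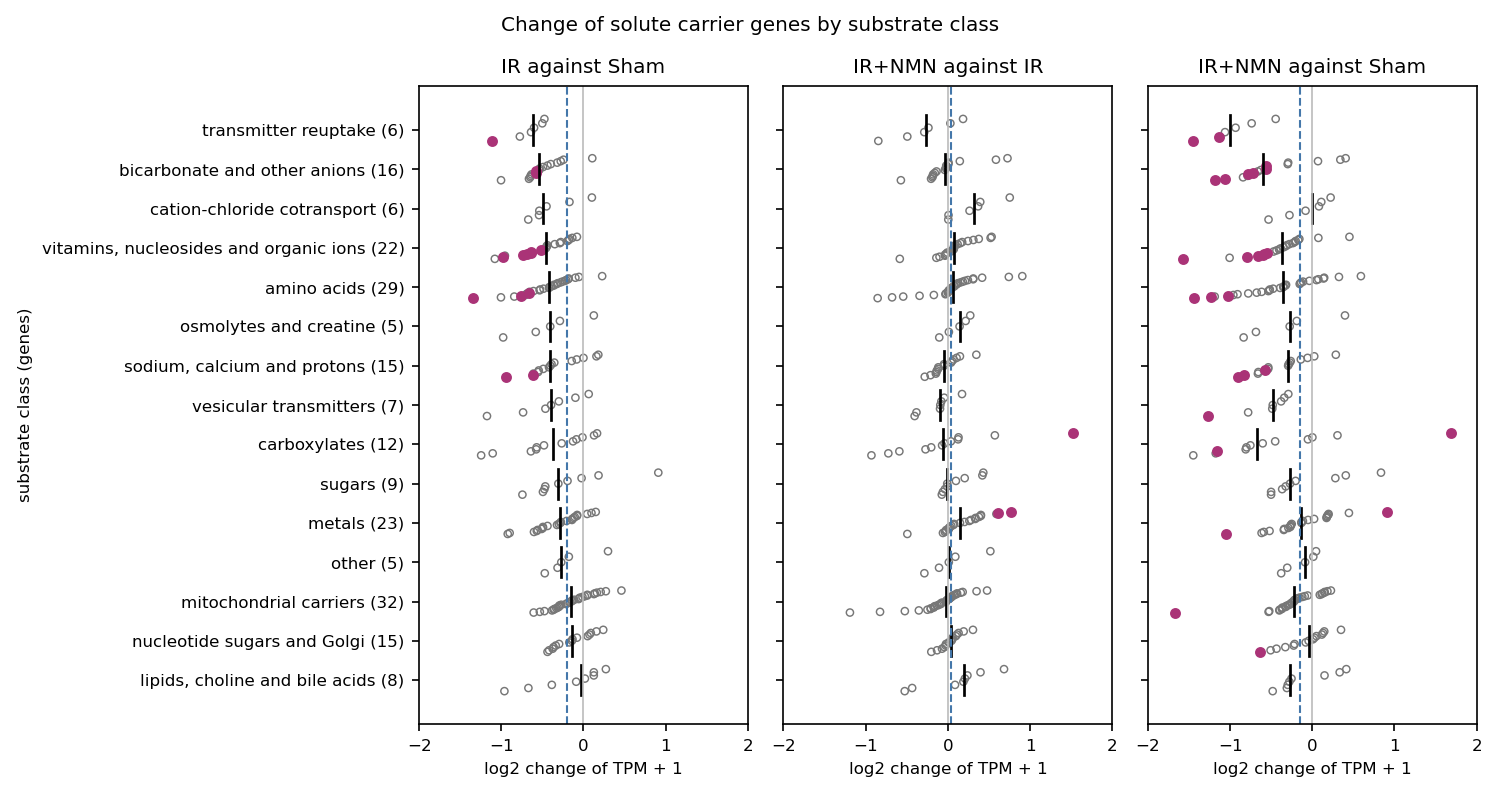
Fitted log2 change of each solute carrier gene by substrate class in the 3 contrasts, 1 point per gene, with the class median as a bar and the median of all genes tested as a dashed line; filled points passed an adjusted p of 0.05. In IR against Sham all 15 class medians lie below 0, as reported in TPM, and 12 of 15 do after rescaling by median ratio.

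By class, the carriers of vitamins, nucleosides and organic ions held the most calls, 6 of 22 lower beside the 5.26% of all genes, with a median log2 change of -0.46. Amino acid carriers had 3 of 29 lower (median -0.42), carriers of bicarbonate and other anions 2 of 16 (-0.54), exchangers of sodium, calcium and protons 2 of 15 (-0.40), and plasma membrane transmitter reuptake 1 of 6 (-0.62). The other 10 classes had 0 calls. They included the 32 mitochondrial carriers, with a median of -0.15, 2 higher and 3 lower at an unadjusted p under 0.05, and the 9 sugar carriers, with a median of -0.31, 1 higher and 3 lower. Rescaling turned the median of 3 classes to positive, among them the mitochondrial carriers (0.06 by median ratio). The lowest class medians, those of transmitter reuptake and of bicarbonate and other anions, stayed below 0 at -0.40 and -0.34.

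Organic ion carriers of the SLC22 family supplied 5 of the 6 calls of their class, from 8 family members tested. Slc22a15, a little-studied carrier of zwitterionic organic solutes, measured 5.37, 6.14 and 5.53 TPM (Sham), 2.28, 2.56 and 2.35 TPM (IR) and 2.75, 2.75 and 2.99 TPM (IR+NMN). Both occluded groups lay wholly below Sham, with a log2 change in IR of -0.97 (SE 0.12, adjusted p = 0.00579). Slc22a2 (OCT2, an organic cation transporter for substrates such as monoamines and choline) measured 2.45, 2.45 and 2.42 TPM (Sham), 1.28, 0.792 and 1.16 TPM (IR) and 1.34, 1.31 and 1.24 TPM (IR+NMN). Its Sham libraries were nearly identical and all above the others, with a log2 change of -0.73 (SE 0.14, adjusted p = 0.0239). Slc22a4 (OCTN1, the ergothioneine transporter) measured 4.36, 3.94 and 4.45 TPM (Sham), 2.94, 2.11 and 1.83 TPM (IR) and 3.56, 2.90 and 3.26 TPM (IR+NMN). No IR library reached the Sham range, and the log2 change was -0.69 (SE 0.16, adjusted p = 0.0412). Slc22a4 missed the threshold after both rescalings (adjusted p = 0.0835 by median ratio and 0.153 by quantile normalization), and Slc22a2 after quantile normalization (0.0777).

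Slc22a17 (the brain-rich receptor for the iron-binding protein lipocalin-2) stood far above its relatives at 486, 517 and 504 TPM (Sham), 353, 322 and 379 TPM (IR) and 304, 366 and 289 TPM (IR+NMN). Sham lay above both occluded groups, which overlapped, with a log2 change in IR of -0.52 (SE 0.12, adjusted p = 0.0457) that missed the threshold after median-ratio rescaling (adjusted p = 0.172). Slc22a21, known in mouse as the carnitine carrier Octn3, measured 1.25, 1.80 and 1.78 TPM (Sham), 0.864, 0.585 and 0.582 TPM (IR) and 0.641, 0.708 and 0.796 TPM (IR+NMN). It reached 1 TPM in the Sham libraries alone and so passed the filter only through the group where it was high; it is also a close relative of Slc22a4, and reads may be shared. Slc19a1, the reduced folate carrier, measured 6.54, 5.78 and 5.83 TPM (Sham), 3.86, 3.43 and 3.34 TPM (IR) and 3.85, 5.40 and 4.73 TPM (IR+NMN). All IR libraries were lower, with a log2 change of -0.63 (SE 0.14, adjusted p = 0.0399); with the highest of its 8 table rows in place of their sum, the change was 0.000691. After rescaling by median ratio and by quantile normalization, Slc22a21 (adjusted p = 0.0705 and 0.120) and Slc19a1 (0.0504 and 0.109) missed the threshold.

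Among amino acid and transmitter carriers, Slc38a5 (SNAT5, which moves glutamine and other neutral amino acids with sodium) showed the largest fitted fall of the solute carriers, from 2.42, 3.11 and 4.25 TPM in Sham to 0.632, 0.585 and 0.759 in IR, beside 0.952, 1.07 and 0.417 in IR+NMN. All IR libraries were under 1 TPM, and the log2 change was -1.34 (SE 0.21, adjusted p = 0.0125). Outside Sham only IR+NMN 2 reached 1 TPM, so Slc38a5 passed the filter only through the group where it was high. Slc7a10 (Asc-1, an exchanger of glycine and serine, D-serine included) measured 26.1, 38.9 and 30.3 TPM (Sham), 18.04, 16.6 and 19.7 TPM (IR) and 12.1, 12.4 and 8.69 TPM (IR+NMN). The 3 groups formed 3 separate steps, and the step from Sham to IR was -0.76 (SE 0.18, adjusted p = 0.0449). Slc6a9 (GlyT1, the glial glycine transporter that sets glycine at glutamate receptors) measured 43.2, 47.7 and 32.02 TPM (Sham), 24.1, 13.96 and 17.5 TPM (IR) and 13.9, 27.5 and 23.1 TPM (IR+NMN). Its IR libraries lay below every Sham library, with a log2 change of -1.12 (SE 0.28, adjusted p = 0.0492), the weakest of the 14 calls. Slc15a3, a lysosomal histidine and peptide carrier of phagocytes, measured 4.04, 4.48 and 4.17 TPM (Sham), 2.87, 2.43 and 1.68 TPM (IR) and 4.11, 4.45 and 4.98 TPM (IR+NMN). The IR libraries lay below those of Sham and IR+NMN, whose ranges overlapped, and IR against Sham gave -0.67 (SE 0.16, adjusted p = 0.0464). After rescaling by median ratio and by quantile normalization, Slc7a10 (adjusted p = 0.0977 and 0.133) and Slc15a3 (0.0818 and 0.160) missed the threshold.

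Ion carriers supplied the other calls, 2 of 15 exchangers of sodium, calcium and protons and 2 of 16 carriers of bicarbonate and other anions, while 2 and 1 members of these classes had a change above 0. Slc8a3, the sodium-calcium exchanger NCX3, measured 3.95, 5.15 and 4.60 TPM (Sham), 2.27, 1.54 and 1.89 TPM (IR) and 1.43, 2.70 and 1.89 TPM (IR+NMN). Every IR library was below every Sham library, at a log2 change of -0.94 (SE 0.19, adjusted p = 0.0276). Slc4a3, the neuronal chloride-bicarbonate exchanger AE3, measured 39.1, 38.8 and 36.5 TPM (Sham), 27.7, 24.2 and 24.1 TPM (IR) and 20.5, 24.8 and 20.5 TPM (IR+NMN). Its change was -0.57 (SE 0.12, adjusted p = 0.0310), without overlap. Slc26a1, a sulfate and oxalate exchanger, measured 2.44, 2.95 and 2.57 TPM (Sham), 1.61, 1.36 and 1.40 TPM (IR) and 1.44, 1.62 and 1.35 TPM (IR+NMN), with Sham again above all IR libraries, a log2 change of -0.57 (SE 0.13, adjusted p = 0.0411). Slc26a1 missed the threshold after both rescalings (adjusted p = 0.0680 and 0.161).

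No solute carrier gene rose past the threshold in IR. The one nearest to it was Slc2a9 (GLUT9, a urate transporter), at 2.51, 3.05 and 2.55 TPM (Sham), 4.30, 6.97 and 6.93 TPM (IR) and 4.20, 8.19 and 5.02 TPM (IR+NMN). Both occluded groups lay wholly above Sham, with a log2 change in IR of 0.91 (SE 0.24, adjusted p = 0.0576). After rescaling by median ratio it passed, at 1.09 (adjusted p = 0.0365). The orphan mitochondrial carrier Slc25a34 was also among the smallest p-values on the higher side, at 0.46 (SE 0.19, adjusted p = 0.152). Slc25a5, the ADP/ATP carrier ANT2, had a log2 change of 0.21 (SE 0.11, adjusted p = 0.245). Slc2a5, the fructose transporter GLUT5 found in brain on microglia, measured 5.11, 5.005 and 6.03 TPM (Sham), 6.13, 6.27 and 6.28 TPM (IR) and 6.40, 6.92 and 6.90 TPM (IR+NMN). Its IR libraries lay above Sham by little, 0.18 (SE 0.12, adjusted p = 0.337), and the sign turned when the highest of its 5 table rows replaced their sum.

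**Figure D2:**
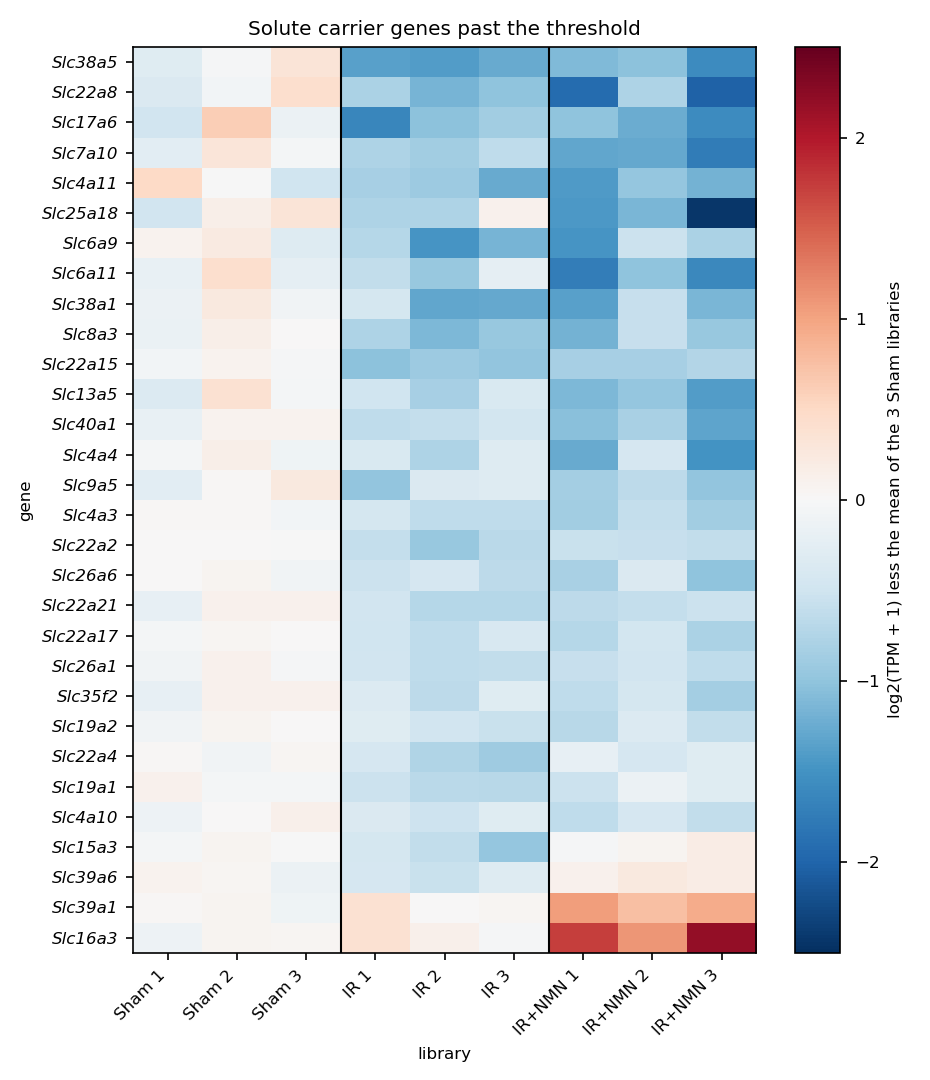
log2(TPM + 1) of 30 of the 32 solute carrier genes past the threshold in any contrast, in each of the 9 libraries, less the mean of the 3 Sham libraries. Most rows are blue in both occluded groups, while Slc15a3, Slc39a6, Slc39a1 and Slc16a3 are red or white in IR+NMN.

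Against untreated occlusion, NMN-treated libraries had 3 solute carrier genes higher, a lactate exporter and a pair of zinc importers. In IR+NMN against IR, 3 of 210 passed, 3 higher and 0 lower, which is 1.43% against 2.36% of all genes, of which 2.30% were higher and 0.0589% lower. At an unadjusted p under 0.05 there were 20 higher and 10 lower, 9.52% and 4.76% of the solute carriers against 10.8% and 2.50% of all genes. The groups did not overlap in 11.0% of solute carrier genes in the higher direction against 13.7% of all genes, and in 5.24% against 3.22% in the lower. The median log2 change was 0.02, and 0.04 over all genes. None of the 3 calls held without each library in turn. Leaving out any 1 of 5 libraries (Sham 2, IR 2, IR 3, IR+NMN 1 and IR+NMN 3) brought the count to 0, and leaving out Sham 1 to 1. Without IR+NMN 2 it was 9, 4 higher and 5 lower, beside 496 of all genes, 368 higher and 128 lower. None of the 3 passed after quantile normalization, after rescaling by median ratio (when Slc25a33 alone passed, lower) or in a fit to these 2 groups alone.

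The promoters of the 3 risen genes are shown because they are the members on which the comparison with untreated occlusion turns. Each sequence is the 250 bases before the annotated start in the RefSeq table of rat build GRCr8, 5′ to 3′ on the gene's strand. Slc16a3 lies at chr10:106712078-106712327 (plus strand), Slc39a1 at chr2:178000869-178001118 (plus) and Slc39a6 at chr18:16160164-16160413 (minus).
Slc16a3: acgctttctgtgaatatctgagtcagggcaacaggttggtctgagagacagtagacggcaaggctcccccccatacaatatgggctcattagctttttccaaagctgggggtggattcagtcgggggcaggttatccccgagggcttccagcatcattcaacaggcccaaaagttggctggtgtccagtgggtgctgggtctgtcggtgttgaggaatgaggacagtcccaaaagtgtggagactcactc
Slc39a1: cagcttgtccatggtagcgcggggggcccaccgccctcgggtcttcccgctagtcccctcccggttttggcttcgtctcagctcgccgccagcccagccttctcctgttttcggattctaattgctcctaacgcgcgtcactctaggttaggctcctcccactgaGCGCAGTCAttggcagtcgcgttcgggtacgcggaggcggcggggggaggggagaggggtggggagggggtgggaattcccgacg
Slc39a6: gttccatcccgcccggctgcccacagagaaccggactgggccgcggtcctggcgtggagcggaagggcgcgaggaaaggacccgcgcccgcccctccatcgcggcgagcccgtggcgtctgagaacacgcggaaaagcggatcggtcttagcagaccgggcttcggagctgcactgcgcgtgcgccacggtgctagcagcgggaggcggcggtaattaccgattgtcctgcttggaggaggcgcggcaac
Capitals mark the one match found, on either strand, to any of 3 response motifs: the hypoxia response core ACGTG, the antioxidant response core TGACNNNGC and the amino acid response core TGATGNAA. Only Slc39a1 held a match, to the antioxidant core. Of all 33469 promoters of this length in the table, 16.6% hold the first motif, 10.1% the second and 3.40% the third. Over the 174 promoters of the solute carrier genes, the shares are 28.2%, 20.7% and 2.87%. A match in 1 of 3 promoters is therefore a description and names no factor.

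Slc16a3 (MCT4, the lactate exporter of glycolytic cells) measured 0.723, 0.984 and 0.945 TPM (Sham), 1.46, 1.06 and 0.848 TPM (IR) and 5.27, 3.06 and 7.64 TPM (IR+NMN). Sham and IR overlapped near 1 TPM and every IR+NMN library was above them, with IR+NMN 2 the lowest of the 3. Outside IR+NMN only IR 1 and IR 2 reached 1 TPM, so Slc16a3 passed the filter only through the group where it was high. The log2 change against IR was 1.52 (SE 0.26, adjusted p = 0.0252). The activated phagocyte markers were also highest in IR+NMN: their sum was 10.3 to 14.5 TPM (Sham), 12.7 to 34.1 TPM (IR) and 89.6 to 882 TPM (IR+NMN). IR+NMN 2 was again the lowest of its group, but the markers were highest in IR+NMN 1 and Slc16a3 in IR+NMN 3. The part of these markers in the result was not tested. The gene's span overlaps that of Csnk1d. No use of strand is given for these Smart-Seq2 libraries in the sources used here, so reads in the shared stretch may come from either gene.

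Slc39a1 (ZIP1, which imports zinc through the plasma membrane) measured 29.1, 29.8 and 26.3 TPM (Sham), 36.98, 28.7 and 29.5 TPM (IR) and 59.7, 48.7 and 55.2 TPM (IR+NMN). All IR+NMN libraries lay above all others, and the log2 change against IR was 0.77 (SE 0.13, adjusted p = 0.0252). Slc39a6 (ZIP6, another zinc importer) measured 24.2, 23.7 and 20.6 TPM (Sham), 16.7, 15.2 and 17.9 TPM (IR) and 24.6, 27.1 and 26.03 TPM (IR+NMN). Here the IR libraries were low and IR+NMN lay just above Sham, with a log2 change against IR of 0.61 (SE 0.12, adjusted p = 0.0332). The other 6 ZIP genes tested did not pass, and the median of the 8 was 0.17. Among the 7 zinc exporters of the SLC30 family, 0 passed, with 0 at an unadjusted p under 0.05, and the median was 0.04. Over all genes 2.36% passed and the median was also 0.04, so these 7 cannot be told apart from all genes.

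**Figure D3:**
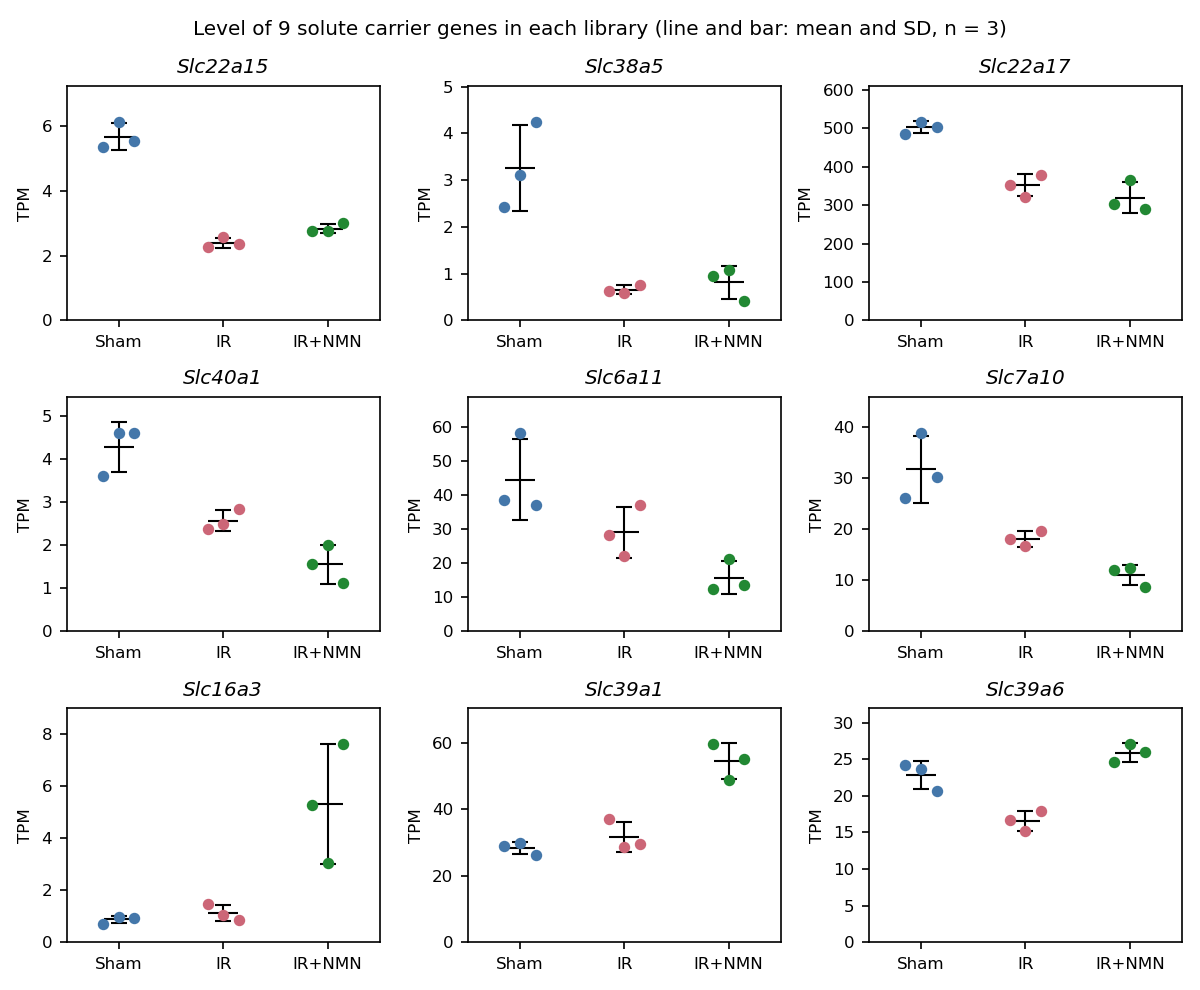
TPM of 9 solute carrier genes in each library, with the mean and SD of each group of 3. The upper rows show genes lower in the occluded groups, and Slc16a3, Slc39a1 and Slc39a6 show IR+NMN above IR without overlap.

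Other genes came close in the same contrast. Slc1a5 (ASCT2, a glutamine and serine exchanger of dividing and activated cells) measured 1.85, 2.53 and 2.13 TPM (Sham), 1.76, 1.09 and 1.84 TPM (IR) and 4.12, 2.79 and 4.56 TPM (IR+NMN). All IR+NMN libraries were the highest, and the log2 change was 0.91 (SE 0.20, adjusted p = 0.0513). Slc15a3, low in IR as above, gave 0.74 (SE 0.16, adjusted p = 0.0538). Slc16a1 (MCT1, the lactate carrier of endothelium and glia) measured 24.2, 25.9 and 20.4 TPM (Sham), 24.4, 16.7 and 17.6 TPM (IR) and 27.1, 26.2 and 34.9 TPM (IR+NMN), with IR+NMN above both other groups, at 0.57 (SE 0.18, adjusted p = 0.164). On the lower side, with no call, the smallest p-values were those of Slc25a34 at -0.83 (SE 0.19, adjusted p = 0.0629) and Slc7a10 at -0.68 (SE 0.18, adjusted p = 0.103). Slc25a33, a mitochondrial pyrimidine nucleotide carrier, gave -0.52 (SE 0.16, adjusted p = 0.144), and Slc16a4, an orphan of the monocarboxylate family, gave -0.93 (SE 0.28, adjusted p = 0.146). Slc6a11 is described below, and gave -0.85 (SE 0.26, adjusted p = 0.163) here.

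IR+NMN against Sham gave the most calls of the 3 contrasts, and the carriers lower there included GAT3 for GABA, bicarbonate carriers of the SLC4 family and the astrocytic exchanger Asc-1. In IR+NMN against Sham, 27 of 210 passed, 2 higher and 25 lower, which is 12.9% against 10.3% of all genes, of which 4.21% were higher and 6.13% lower. Groups lay apart in the lower direction in 32.4% of solute carrier genes against 20.4% of all genes, and in the higher in 9.52% against 13.0%. At an unadjusted p under 0.05 there were 8 higher and 63 lower, 3.81% and 30.0% against 10.3% and 19.6%. The median log2 change was -0.29, and -0.14 over all genes. After rescaling by median ratio the medians were -0.16 and -0.0099, with 24 lower and 5 higher, beside 595 lower and 686 higher of all genes. With the share of ribosomal protein genes as a covariate the medians were -0.043 and 0.027 and 14 genes passed, of which 8 were among the 27 calls (Slc16a3, Slc39a1, Slc22a15, Slc22a17, Slc38a5, Slc40a1, Slc4a3 and Slc7a10). Under that covariate Slc6a11 had an adjusted p of 0.0709, Slc25a18 of 0.0653 and Slc4a4 of 0.160, so these calls were lost. Without each library in turn, 7 calls held throughout, those of Slc16a3, Slc39a1, Slc22a15, Slc38a5, Slc40a1, Slc4a3 and Slc7a10. Of these, Slc16a3 and Slc38a5 each passed the filter only through the group where it was high. The count was 7 without Sham 2 or IR+NMN 3, 10 without IR+NMN 1, 11 without Sham 3 and 53 without IR+NMN 2. That of all genes moved as well, from 276 without IR+NMN 3 to 2168 without IR+NMN 2. IR and IR+NMN are set against the same Sham libraries, so the 10 genes called in both contrasts are given as values only.

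Without IR 1 and IR+NMN 2 together, the libraries nearest to Sham in their groups, 69 solute carrier genes passed in IR against Sham (1 higher), 12 in IR+NMN against IR (7 higher) and 75 in IR+NMN against Sham (4 higher), beside 24.7%, 5.24% and 29.4% of all genes. For the contrasts with Sham, leaving out the libraries closest to it widens the differences by construction.

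Transmitter reuptake had 2 of 6 lower against Sham in IR+NMN, beside 6.13% of all genes, and its median of -0.997 was the lowest of the 15 classes. Slc6a11 (GAT3, the astrocytic GABA transporter) measured 38.5, 58.3 and 36.99 TPM (Sham), 28.2, 21.995 and 36.998 TPM (IR) and 12.5, 21.3 and 13.5 TPM (IR+NMN). Every IR+NMN library was below every library of the other groups, at -1.45 (SE 0.26, adjusted p = 0.0131) against Sham. Slc17a6, the vesicular glutamate transporter VGLUT2, measured 6.83, 15.8 and 8.85 TPM (Sham), 2.54, 4.34 and 4.96 TPM (IR) and 4.41, 3.63 and 2.69 TPM (IR+NMN). Its occluded libraries all lay below Sham, at -1.27 (SE 0.31, adjusted p = 0.0354) in IR+NMN and -1.17 (SE 0.31, adjusted p = 0.0554) in IR, which missed the threshold. After rescaling it missed it in IR+NMN as well (adjusted p = 0.0553 by median ratio and 0.0554 by quantile normalization).

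Bicarbonate and anion carriers had 6 of 16 lower in IR+NMN against Sham, beside 6.13% of all genes, with a median of -0.60. Slc4a4 (NBCe1, the astrocytic sodium-bicarbonate cotransporter) measured 79.6, 91.9 and 76.5 TPM (Sham), 62.8, 47.9 and 65.7 TPM (IR) and 33.7, 61.2 and 28.4 TPM (IR+NMN). IR and IR+NMN overlapped while Sham stood above both, at -1.06 (SE 0.26, adjusted p = 0.0363). Slc4a10 (NBCn2, neuronal sodium-bicarbonate exchange) measured 143, 158 and 171 TPM (Sham), 121, 109 and 127 TPM (IR) and 101, 117 and 102 TPM (IR+NMN), at -0.56 (SE 0.12, adjusted p = 0.0211). Its Sham libraries lay above all others, and it missed the threshold after median-ratio rescaling (adjusted p = 0.0711). Slc4a3 gave -0.78 (SE 0.12, adjusted p = 0.00688) here, -0.57 (SE 0.12, adjusted p = 0.0310) in IR and -0.20 (SE 0.12, adjusted p = 0.565) between the occluded groups. Slc4a11, a member of the same family that conducts protons, measured 3.61, 2.26 and 1.32 TPM (Sham), 0.830, 0.737 and 0.363 TPM (IR) and 0.226, 0.664 and 0.447 TPM (IR+NMN). It reached 1 TPM in the Sham libraries alone, so the filter fixed part of this difference, -1.19 (SE 0.26, adjusted p = 0.0231). The sulfate and anion exchangers Slc26a1 and Slc26a6 gave -0.56 (SE 0.13, adjusted p = 0.0312) and -0.72 (SE 0.18, adjusted p = 0.0374).

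Amino acid carriers had 3 of 29 lower in IR+NMN against Sham, beside 6.13% of all genes. Slc7a10 showed the smallest p of the solute carriers in this contrast, at -1.44 (SE 0.18, adjusted p = 0.00309). Slc38a1 (SNAT1, which supplies neurons with glutamine) measured 82.3, 108 and 86.2 TPM (Sham), 66.8, 36.8 and 37.3 TPM (IR) and 35.1, 60.7 and 40.9 TPM (IR+NMN). Sham lay above both occluded groups, at -1.03 (SE 0.27, adjusted p = 0.0453). For Slc38a5 the change was -1.23 (SE 0.21, adjusted p = 0.00925), close to its value in IR. Slc25a18, the astrocytic mitochondrial glutamate carrier, measured 45.5, 70.5 and 79.5 TPM (Sham), 36.8, 36.9 and 68.6 TPM (IR) and 22.8, 28.3 and 10.98 TPM (IR+NMN). It showed the largest fitted fall among the solute carriers in this contrast, -1.67 (SE 0.37, adjusted p = 0.0272), with IR 3 still in the Sham range. Slc13a5, a citrate importer, measured 4.62, 8.29 and 5.92 TPM (Sham), 4.03, 3.003 and 4.49 TPM (IR) and 2.27, 2.65 and 1.71 TPM (IR+NMN). It formed 3 separate steps, -1.16 (SE 0.22, adjusted p = 0.0147) from Sham to IR+NMN.

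Slc40a1 (ferroportin, the only known iron exporter of animal cells) measured 3.60, 4.60 and 4.61 TPM (Sham), 2.37, 2.49 and 2.84 TPM (IR) and 1.56, 2.005 and 1.11 TPM (IR+NMN). Its 3 groups did not overlap and descended from Sham to IR to IR+NMN, at -1.05 (SE 0.17, adjusted p = 0.00789) against Sham and -0.49 (SE 0.17, adjusted p = 0.210) against IR. Slc22a8 (OAT3, the organic anion carrier of the blood-brain barrier and choroid plexus) measured 6.25, 7.82 and 11.4 TPM (Sham), 4.38, 3.15 and 3.59 TPM (IR) and 1.44, 4.45 and 1.28 TPM (IR+NMN). Sham was highest throughout, at -1.57 (SE 0.34, adjusted p = 0.0227), with Sham 3, the library richest in meningeal markers, at the top. The exchangers Slc8a3 and Slc9a5 (NHE5, a proton exchanger of neurons) gave -0.90 (SE 0.19, adjusted p = 0.0207) and -0.83 (SE 0.21, adjusted p = 0.0423). Slc19a2, a thiamine carrier, and Slc35f2, a solute carrier of the SLC35 family, closed the list at -0.55 (SE 0.14, adjusted p = 0.0444) and -0.64 (SE 0.17, adjusted p = 0.0487). After rescaling by median ratio and by quantile normalization, Slc9a5 (adjusted p = 0.0926 and 0.0874) and Slc35f2 (0.0645 and 0.0584) missed the threshold. On the higher side, Slc16a3 gave 1.68 (SE 0.26, adjusted p = 0.00678) and Slc39a1 0.91 (SE 0.13, adjusted p = 0.00591).

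Read by the cells known to use them, astrocytic carriers were the list with the lowest median in IR+NMN among those with at least 5 genes. Of 10 tested, 4 were lower against Sham in IR+NMN (Slc7a10, Slc6a11, Slc25a18 and Slc4a4) and 2 in IR (Slc7a10 and Slc6a9), beside 6.13% and 5.26% of all genes, with medians of -0.999 and -0.48. Their summed level was 376 to 478 TPM (Sham), 251 to 334 TPM (IR) and 188 to 309 TPM (IR+NMN). The sums of Sham and the occluded groups did not overlap. The 8 astrocyte markers had a median of 0.23 in IR against Sham, -0.51 in IR+NMN against IR and -0.50 in IR+NMN against Sham, where 5 were below 0, 3 of them at an unadjusted p under 0.05, and 2 passed as higher, Gfap at 3.01 (SE 0.45, adjusted p = 0.00605) and Glul at 0.62 (SE 0.16, adjusted p = 0.0452). In IR+NMN against IR, 6 of the 8 were below 0, beside a median of -0.55 for the astrocytic carriers. Summed without Gfap, the markers held 3703 to 3912 TPM (Sham), 4105 to 5258 TPM (IR) and 2767 to 4174 TPM (IR+NMN). The part of astrocyte number or state in the carrier values was not tested.

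**Figure D4:**
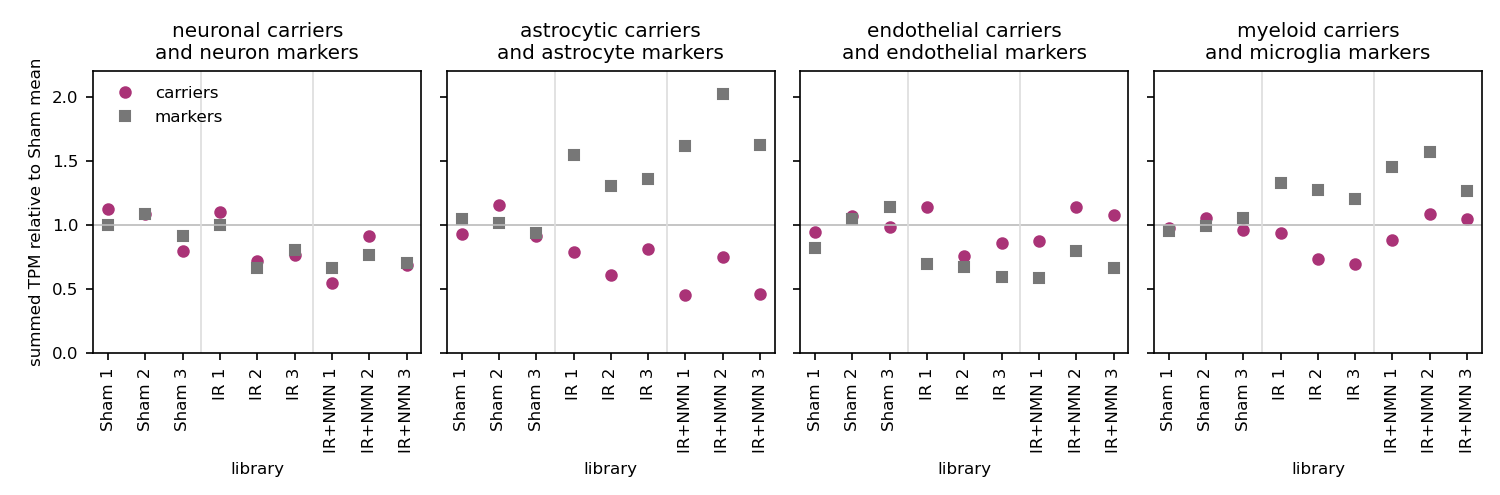
Summed TPM of carriers typical of neurons, astrocytes, endothelium and myeloid cells, and of markers of the same cells (microglia for myeloid cells, and Gfap included for astrocytes), in each library relative to the mean of Sham. Astrocytic carriers lie below 1 in all occluded libraries, endothelial markers do so too, and endothelial carriers lie on both sides of 1.

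Beside the same shares of all genes, neuronal carriers had 4 of 14 lower in IR+NMN against Sham (Slc4a10, Slc17a6 and Slc38a1 among them), with a median of -0.57, and 0 of 14 in IR, where 5 were lower at an unadjusted p under 0.05 and the median was -0.51. They summed to 2084 to 2938 TPM (Sham), 1874 to 2882 TPM (IR) and 1423 to 2398 TPM (IR+NMN), with overlap of all 3 groups. Neuronal markers summed to 6522 to 7723 TPM (Sham), 4739.9 to 7122 TPM (IR) and 4736 to 5459 TPM (IR+NMN). All 10 were below 0 in both contrasts with Sham, with medians of -0.27 in IR and -0.51 in IR+NMN. In IR+NMN 1 of 10 passed as lower (Tubb3). At an unadjusted p under 0.05, 2 were lower in IR and 5 in IR+NMN, beside 23.1% and 19.6% of all genes. The part of these markers was not tested.

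Endothelial carriers had 1 of 13 lower in IR (Slc38a5) and 3 in IR+NMN (Slc38a5, Slc40a1 and Slc22a8), beside 5.26% and 6.13% of all genes, with medians of -0.53 and -0.60. Their sum, 269 to 305 TPM (Sham), 216 to 325 TPM (IR) and 248 to 325 TPM (IR+NMN), overlapped between groups, with Slc3a2 and Slc2a1 its most abundant members. Endothelial markers summed to 150.2 to 208 TPM (Sham), 109 to 127 TPM (IR) and 108 to 146 TPM (IR+NMN), and 3 of 9 (Tek, Tie1 and Kdr) were lower in IR and 2 in IR+NMN (Tek and Tie1). From IR to IR+NMN, 8 of the 9 markers were above 0 with a median of 0.28. Of the 13 endothelial carriers, 8 were above 0 and 5 below, with a median of 0.03 and a highest change of 0.57. Among those below 0, Slc40a1 and Slc22a8 gave -0.49 and -0.59. The part of vessel content was not tested. Myeloid carriers had 1 of 5 lower in IR (Slc15a3) and 0 in IR+NMN, where 1 was higher at an unadjusted p under 0.05. Slc11a1 (NRAMP1, the metal carrier of phagosomes) measured 3.55, 4.04 and 4.05 TPM (Sham), 3.12, 1.68 and 2.22 TPM (IR) and 3.51, 4.23 and 4.15 TPM (IR+NMN). Like Slc15a3 it was low in IR, with overlapping ranges in Sham and IR+NMN, at -0.57 (SE 0.18, adjusted p = 0.0807) and 0.02 (SE 0.18, adjusted p = 0.938). Microglial markers summed to 389 to 433 TPM (Sham), 494 to 543 TPM (IR) and 519.8 to 643 TPM (IR+NMN). In IR against Sham 6 of the 10 were above 0 and 4 below, with a median of 0.06, and the 3 past the threshold were C1qa, C1qb and C1qc, all higher, with 2 lower at an unadjusted p under 0.05. The part of microglia in these carriers was not tested.

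Oligodendrocyte carriers (3 tested) and carriers of the choroid plexus and meninges (2 tested) had 0 calls in any contrast. At an unadjusted p under 0.05 they had 1 each lower in IR, beside 23.1% of all genes. In IR+NMN against IR 1 oligodendrocyte carrier was higher (Slc44a1, 0.68), beside 10.8% of all genes. In IR+NMN against Sham 1 carrier of the choroid plexus and meninges was lower, beside 19.6%. Slc44a1, the choline transporter used in myelin formation, measured 58.1, 54.5 and 37.1 TPM (Sham), 35.4, 20.4 and 20.7 TPM (IR) and 28.1, 46.8 and 49.3 TPM (IR+NMN). Sham lay above IR, at -0.96 (SE 0.29, adjusted p = 0.0755), beside oligodendrocyte markers that summed to 5816 to 12717 TPM (Sham), 4045 to 7625 TPM (IR) and 3531 to 8926 TPM (IR+NMN). Slc13a4, a sulfate carrier of the meninges and choroid plexus, was at 3.65, 3.70 and 15.4 TPM in Sham, and Slc6a13 (GAT2) at 2.71, 1.48 and 9.76. In both, Sham 3 was several times higher than the other Sham libraries, as it was for the meningeal markers.

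Carriers known to respond to hypoxia, amino acid shortage or oxidative stress were also read as a list. Of 12 tested, 1 was lower in IR (Slc6a9), and 1 was higher in IR+NMN against IR and against Sham (Slc16a3). The shares of all genes in these directions were 5.26%, 2.30% and 4.21%, from which 1 call among 12 genes cannot be told apart. The medians were -0.31, 0.07 and -0.19, beside -0.34, 0.02 and -0.29 over all solute carriers. In IR against Sham 10 of the 12 were below 0. Slc7a5 (LAT1, the large neutral amino acid exchanger of the blood-brain barrier) measured 22.6, 26.9 and 20.7 TPM (Sham), 19.4, 12.8 and 15.6 TPM (IR) and 14.1, 17.9 and 16.04 TPM (IR+NMN). Its Sham libraries lay above all others, but its log2 changes of -0.53 (SE 0.17, adjusted p = 0.0900) in IR and -0.52 (SE 0.17, adjusted p = 0.0858) in IR+NMN missed the threshold.

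Other transport genes, whose symbols lack the Slc form used here, had 3 of 27 lower in IR and 5 in IR+NMN against Sham. The shares of all genes were 5.26% and 6.13%. In IR+NMN against IR 0 were called, with 1 higher and 4 lower at an unadjusted p under 0.05, beside 10.8% and 2.50% of all genes. Slco2b1, an organic anion transporter of the vessel wall, measured 14.95, 17.2 and 15.3 TPM (Sham), 8.60, 8.82 and 8.99 TPM (IR) and 6.41, 9.75 and 6.32 TPM (IR+NMN). All Sham libraries lay above all others. Among organic anion transporters and drug efflux pumps of the vessel wall, Slco2b1 was lower in both occluded groups, at -0.78 (SE 0.16, adjusted p = 0.0311) and -1.01 (SE 0.16, adjusted p = 0.00815), and Slco1a4 in IR+NMN, at -1.61 (SE 0.31, adjusted p = 0.0159).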

How the data were processed

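RNA sequencing of 9 rat brain libraries, amplified by the Smart-Seq2 method, was deposited as TPM values made by the authors. STAR, Cufflinks and hg38, a human build, are named in the submitters' processing notes, although the samples are from rat. Versions and annotation were missing from the sources used here, so no coordinates from the files were used. The depth behind TPM is unknown, and no counting intervals or floors could be given.

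Of 131003 table rows, 27683 carried a gene symbol, and rows of a symbol were summed. A gene was kept where 3 or more libraries held at least 1 TPM, which left 10180. limma 3.58.1 (R 4.3.3), with an intensity trend and robust moderation, was fitted to log2(TPM + 1) of all 9 libraries with 1 mean per group. Fold changes on this scale understate the change of low genes. P-values were two-sided and adjusted by Benjamini-Hochberg over all 10180 genes of a contrast, with a threshold of 0.05. The procedure was tested on simulated data. With 3 against 3 libraries no exact permutation test of a single gene can pass the threshold, and none was used. The test foreseen for counts was dropped, since the deposited values are TPM.

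The genes described, the substrate classes and the gene lists were chosen with earlier results of these data known. The text names, per contrast, up to 10 higher and 10 lower genes past the threshold, without overlap of the groups, in order of fitted change, filled to 5 by the smallest p. It also names the 2 most abundant genes of a class and up to 4 genes of a list. Other genes past the threshold were added after their values were seen, except for some single results that are not reported here. Spans of 8 of the 32 genes past the threshold overlap another protein-coding gene on GRCr8 (among them Slc15a3, Slc26a1, Slc6a9, Slc7a10 and Slc40a1), and reads of such pairs cannot be told apart without strand. RefSeq promoters matched 167 of the 210 genes. Alternatives covered scaling, pseudocount, filters, row summing, moderation, covariates, a block by replicate number and libraries left out. Figures were drawn with matplotlib 3.10.9.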

Additional observations from a re-analysis of the deposited data

How the results depend on the processing

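Reported counts of solute carrier genes past the threshold were 14 in IR against Sham, 3 when NMN-treated libraries were set against IR, and 27 when they were set against Sham. Counts below keep this order. Those of all 10180 genes stand beside them and were 651, 240 and 1053 as reported. Median-ratio scaling gave 9 (1 higher and 8 lower), 1 (lower) and 29 (5 higher and 24 lower). Over all genes it gave 561 (276 higher and 285 lower), 73 (70 higher and 3 lower) and 1281 (686 higher and 595 lower). Quantile normalization gave 11 (1 higher), 0 and 30 (5 higher), beside 582 (290 higher), 7 (6 higher) and 1409 (717 higher) of all genes. In the contrast with IR, 37 and 34 passed an unadjusted p under 0.05 after quantile and median-ratio scaling, beside 1467 and 1517 of all 10180 genes. Of the 14 genes lower in IR, 6 passed after median-ratio scaling and 7 after quantile normalization. A mean of at least 5 TPM, which left 142 solute carrier genes, gave 4, 2 and 12, beside 439, 145 and 688 of the 8323 genes left. Without trend and robust moderation the counts were 15, 5 and 29, beside 686, 281 and 1094 of all genes. With the 2 groups fitted alone they were 15, 0 and 18, beside 672, 2 and 620. With the share of ribosomal protein genes added to the fit, the counts were 10, 11 (10 higher and 1 lower) and 14 (5 higher and 9 lower). Over all genes they were 550, 482 (435 higher and 47 lower) and 404 (206 higher and 198 lower). Leaving out 1 library gave 1 to 32, 0 to 9 and 7 to 53, beside 74 to 1138, 0 to 496 and 276 to 2168 of all genes. Leaving out IR 1 and IR+NMN 2 together gave 69, 12 and 75, beside 2514, 533 and 2989. Pseudocounts of 0.1 and 5, no filter, the highest row per symbol and dropping rows present in 1 group alone kept each count within 1.5 times the reported one. With the highest row, 13 of the 14 genes lower in IR still passed. The change in IR turned to -0.225 (adjusted p = 0.725) for Slc2a5 and to 0.000691 (adjusted p = 0.998) for Slc19a1. The fall of Slc19a1 thus lay in its other rows, and its call depends on their sum. Causes of the differences between settings were not tested.

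With the replicate number as a block the counts were 1, 0 and 11, beside 100, 33 and 499 of all genes. Correlations of same-numbered libraries ran from -0.568 to 0.492, with 3 of 9 over 0.1 and 0 libraries closest to their own number throughout. No regular pairing by number was seen. These are deviations from means of 3 libraries, which cannot decide whether same-numbered libraries shared a preparation. The limits are 3 libraries a group, an unknown depth, which leaves the error of genes near 1 TPM unstated, and 2 libraries that stand apart. The comparison of count tests was not run because the table held no counts.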
